A study of Mus musculus with 10 samples.

Results

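The colonic identity transcription factors described here are 6 genes, Cdx2, Cdx1, Hnf4a, Gata6, Klf4 and Klf5, and the data are the places near them where the aryl hydrocarbon receptor (AHR) was called bound in mouse colon organoids. A peak was counted for a gene when it touched the gene body or the 10 kb on either side, with genes from GENCODE release M21 on the mm10 assembly, which has the same sequence as GRCm38. Of 123652 peaks in the wild type list, 24 lay in these 6 windows, and of 1931 peaks in the AHR KO list there were 0. Chromatin immunoprecipitation with sequencing (ChIP-seq) was carried out with an antibody to AHR, and each ChIP library was set against an input library of sheared chromatin without the antibody step. Wild type organoids gave 4 AHR ChIP and 4 input libraries, and AHR KO organoids gave 1 AHR ChIP and 1 input library. The study's methods name Villin-Cre Ahr fl/fl mice, in which Cre under the Villin promoter deletes Ahr in intestinal epithelium, as the source of its knockout crypts. Organoids of both genotypes were grown in WENR medium, which holds epithelial cultures in a stem-like regenerative state, and were exposed for 1 hour to FICZ, an AHR ligand, at 5 nM. The wild type cultures stand in a single list, and how many AHR KO cultures went into the AHR KO libraries is not given in their labels, although biological replicates of each genotype are described in the methods, so no value below has a replicate error and no genotype difference has a replicate check. A list of positions cannot check the genotype, the cell type or the expression of any gene.

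Xenobiotic response elements, whose core is the word GCGTG, are the DNA sites of the complex that AHR forms with ARNT in cells given a ligand such as FICZ. The 6 factors sit at the head of the gene programme of colon epithelium. The caudal-type homeobox factors Cdx2 and Cdx1 give the gut tube its intestinal character, and without Cdx2 the epithelium takes on gastric features. The nuclear receptor Hnf4a drives genes of mature absorptive cells, and the zinc finger factor Gata6 works with it in endoderm. Klf4 is a factor of differentiated surface cells and goblet cells, while Klf5 is found in the proliferating cells of the crypt.

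Sequences are shown here for some of the peaks that carry the AHR words and for peaks whose sequence is a repeat, since these features separate the 24 peaks. They were read from GRCm38 on the plus strand, and peaks are numbered along the chromosome within each gene. Sequence from the chromosome of Cdx1 and Gata6 is not printed, while their positions and counts are given. In the first set capitals mark GCGTG, or CACGC where the word is on the minus strand, and at Cdx2 peak 3 they mark the longer form TNGCGTG, in which N is any base.
Cdx2 peak 3 (chr5:147299573-147299752): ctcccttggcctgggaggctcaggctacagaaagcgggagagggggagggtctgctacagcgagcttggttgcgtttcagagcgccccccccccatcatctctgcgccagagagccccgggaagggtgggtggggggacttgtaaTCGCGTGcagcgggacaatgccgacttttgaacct
Cdx2 peak 1 (chr5:147291357-147291559): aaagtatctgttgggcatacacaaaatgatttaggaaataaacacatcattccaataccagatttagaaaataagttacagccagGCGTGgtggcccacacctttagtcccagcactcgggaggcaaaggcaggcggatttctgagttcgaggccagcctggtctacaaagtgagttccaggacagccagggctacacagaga
Hnf4a peak 2 (chr2:163514227-163514490): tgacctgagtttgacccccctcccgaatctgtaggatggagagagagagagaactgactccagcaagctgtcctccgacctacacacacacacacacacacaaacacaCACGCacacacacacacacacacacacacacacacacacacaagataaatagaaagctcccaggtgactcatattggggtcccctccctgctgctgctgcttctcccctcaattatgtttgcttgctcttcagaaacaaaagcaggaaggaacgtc
Hnf4a peak 9 (chr2:163577320-163577559): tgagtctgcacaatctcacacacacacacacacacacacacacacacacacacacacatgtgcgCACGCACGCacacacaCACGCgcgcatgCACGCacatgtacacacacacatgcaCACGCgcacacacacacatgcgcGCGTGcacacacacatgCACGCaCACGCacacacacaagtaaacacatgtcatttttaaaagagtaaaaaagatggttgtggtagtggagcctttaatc
Klf4 peak 1 (chr4:55517855-55518040): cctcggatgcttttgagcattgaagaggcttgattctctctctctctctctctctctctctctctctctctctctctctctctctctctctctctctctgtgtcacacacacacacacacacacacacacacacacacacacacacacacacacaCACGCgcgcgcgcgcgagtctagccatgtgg
The words stood in different settings. At Cdx2 peak 3 the word lay outside any tract of short repeats, whereas at Hnf4a peaks 2 and 9 and at Klf4 peak 1 it lay within or at the edge of CA repeats.

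In the second set capitals mark the longest perfect tandem repeat of the bases printed, and the peaks show the upstream TG run of Cdx2, its longest tract, the promoter peak and the highest peak of Hnf4a, the longest CA run and the highest peak of Klf5. For the 2 widest of these the 200 bp in the middle of the peak are given, and a repeat of GAAG units of 56 bp in Klf5 peak 3 is not marked because it is not whole within them.
Cdx2 peak 4 (chr5:147313572-147313757): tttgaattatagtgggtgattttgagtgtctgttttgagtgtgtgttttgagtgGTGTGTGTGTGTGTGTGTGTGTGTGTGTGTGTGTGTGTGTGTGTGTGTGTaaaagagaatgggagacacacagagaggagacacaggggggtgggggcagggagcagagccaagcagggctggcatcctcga
Cdx2 peak 2 (chr5:147296071-147296251): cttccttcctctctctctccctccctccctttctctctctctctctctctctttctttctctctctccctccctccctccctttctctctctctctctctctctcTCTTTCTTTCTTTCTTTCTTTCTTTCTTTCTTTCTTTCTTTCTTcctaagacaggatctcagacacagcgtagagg
Hnf4a peak 5 (chr2:163545916-163546138): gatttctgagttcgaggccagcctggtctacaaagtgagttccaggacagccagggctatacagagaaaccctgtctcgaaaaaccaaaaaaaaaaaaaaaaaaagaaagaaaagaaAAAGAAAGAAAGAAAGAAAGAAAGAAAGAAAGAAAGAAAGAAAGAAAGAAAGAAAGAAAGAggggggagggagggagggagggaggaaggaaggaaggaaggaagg
Hnf4a peak 6, middle (chr2:163550515-163550714): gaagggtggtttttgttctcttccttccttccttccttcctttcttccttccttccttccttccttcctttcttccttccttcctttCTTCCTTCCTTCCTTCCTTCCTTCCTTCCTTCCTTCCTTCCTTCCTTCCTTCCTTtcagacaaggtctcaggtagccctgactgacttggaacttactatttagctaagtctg
Hnf4a peak 8 (chr2:163573064-163573262): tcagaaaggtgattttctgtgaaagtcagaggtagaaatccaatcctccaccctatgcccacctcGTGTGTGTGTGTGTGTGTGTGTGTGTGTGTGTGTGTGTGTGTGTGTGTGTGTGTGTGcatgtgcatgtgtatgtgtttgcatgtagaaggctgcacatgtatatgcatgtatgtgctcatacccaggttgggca
Klf5 peak 3, middle (chr14:99324045-99324244): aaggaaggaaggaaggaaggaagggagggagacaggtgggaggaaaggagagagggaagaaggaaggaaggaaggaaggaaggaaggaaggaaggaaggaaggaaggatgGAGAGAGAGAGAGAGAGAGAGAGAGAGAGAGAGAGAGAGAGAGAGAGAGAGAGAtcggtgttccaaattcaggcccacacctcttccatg
Cdx2 peak 4 and Hnf4a peak 8 were runs of alternating G and T, the other strand of a CA repeat. The other 4 were purine-pyrimidine tracts, in which one strand holds only C and T, or only A and G, over a long stretch.

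All 6 genes had a wild type peak, as had 78.3% of 21938 protein-coding genes. Hnf4a had 9 peaks, Cdx2 had 4, Cdx1, Gata6 and Klf5 had 3 each and Klf4 had 2. Of the 24 peaks 9 lay in a gene body, and the others lay upstream (5) or downstream (10). Of those in bodies 8 lay in introns and 1 overlapped an exon in part. Since the windows differ in length from 25.3 kb at Klf4 to 86.1 kb at Hnf4a, the counts were also set per 10 kb. The 6 windows together held 0.905 wild type peaks per 10 kb (exact Poisson 95% interval 0.580 to 1.35, which covers counting error only), against 0.466 over all assembled sequence and a median of 0.400 among protein-coding genes (quartiles 0.173 and 0.660). Cdx2 was the densest at 1.51, followed by Hnf4a at 1.05, Klf5 at 0.825, Cdx1 at 0.803, Klf4 at 0.790 and Gata6 at 0.560. Gata6 was the only 1 of the 6 below the upper quartile. Without Hnf4a, which has the most peaks, the density was 0.838.

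**Figure D1:**
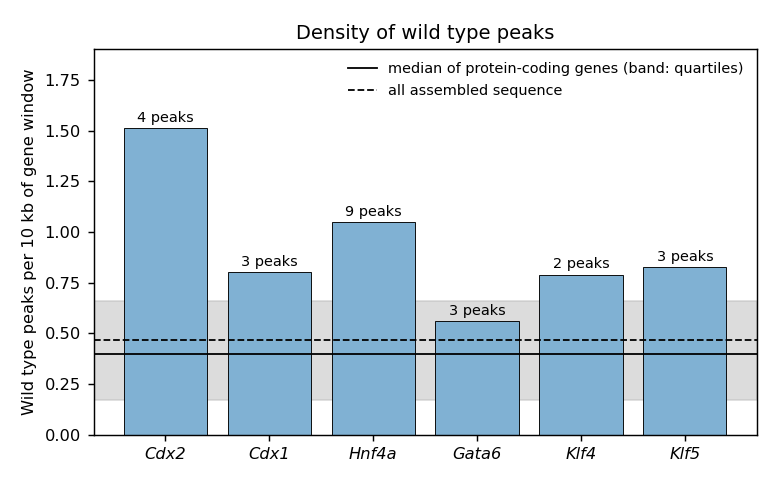
Wild type AHR peaks per 10 kb of each gene window (bars, from 0), with the number of peaks above each bar. The line and band give the median (0.400) and quartiles (0.173 and 0.660) of protein-coding genes and the dashed line all assembled sequence (0.466). Bars have no error because the cultures are in a single list. Every bar but that of Gata6 stands above the band.

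Genes were matched to each member by the length of the window, the gene body with its flanks, to within 10%. At least as many peaks were found in 4.49% of 4167 such genes for Cdx2 and 4.40% of 1023 for Hnf4a. The shares were 24.8% of 2582 genes for Cdx1, 24.8% of 2637 for Klf5, 31.3% of 4214 for Klf4 and 41.8% of 1782 for Gata6. The median gene of matched window length had 4 peaks for Hnf4a, 2 for Gata6 and 1 for each of the others. Cdx2 and Hnf4a thus lay near the top of their class of window length by count, while the other 4 genes did not. No test was made, since the genes were chosen by hand and neighbouring peaks are not independent.

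**Figure D2:**
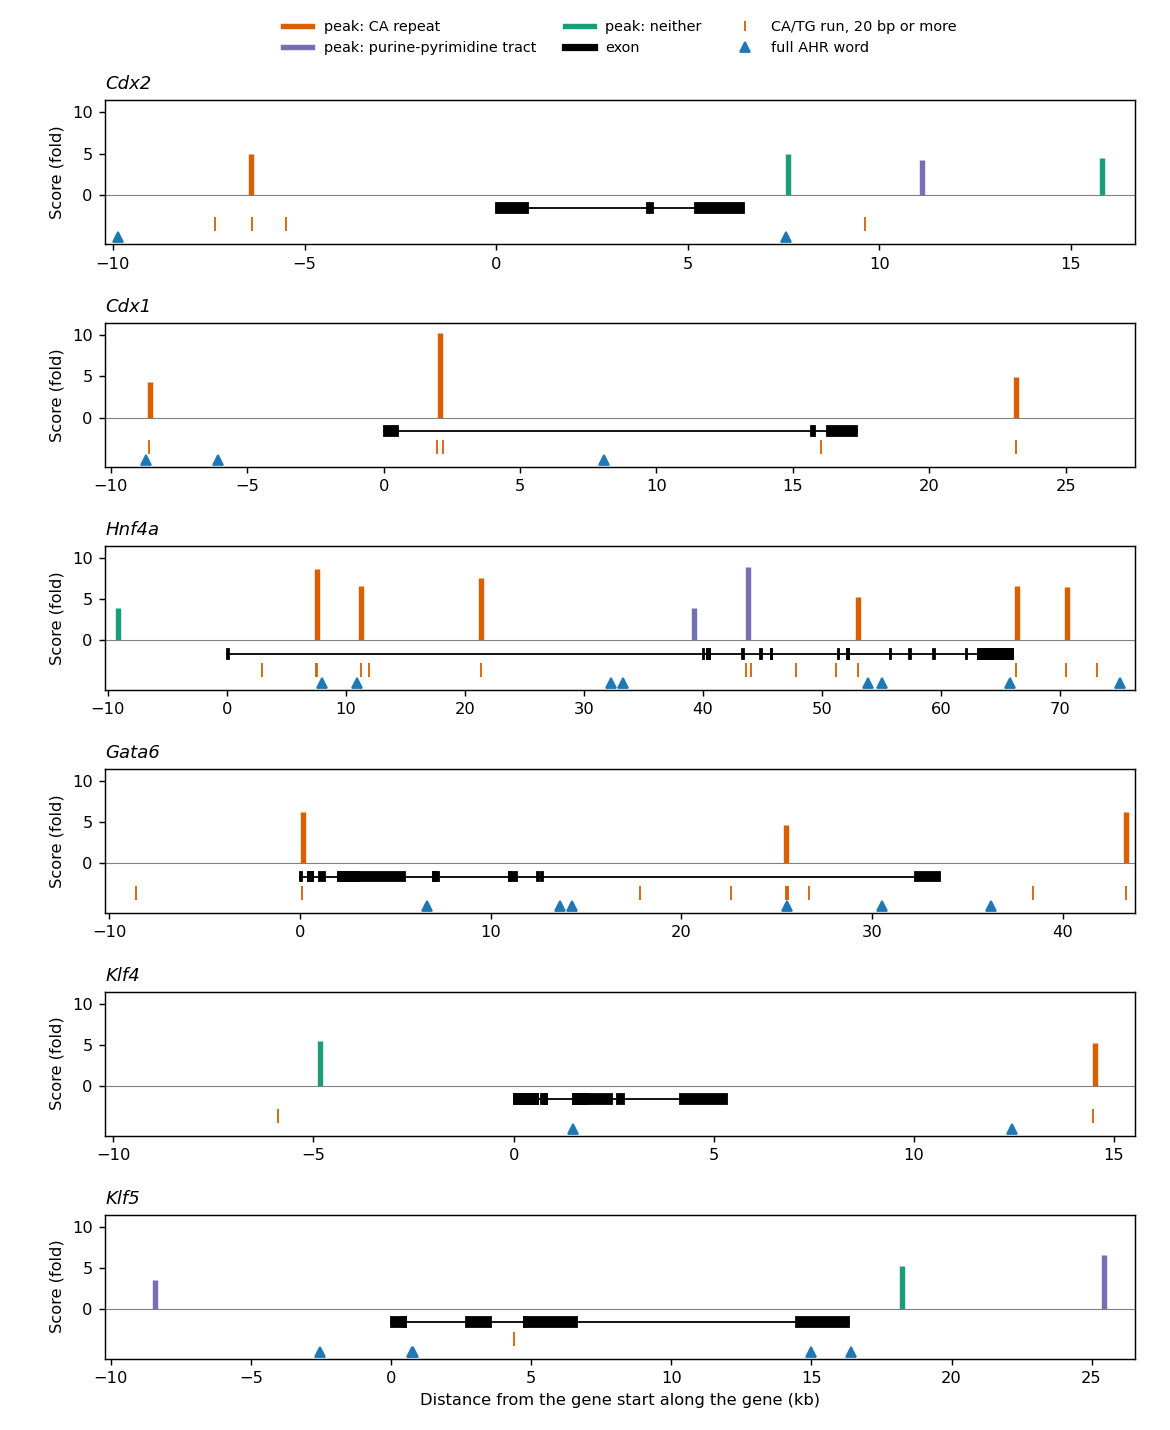
Each gene window drawn from left to right along the gene, with the distance from the gene start in kb on the x axis and the peak score, a fold enrichment, on the y axis. Bars are wild type peaks coloured by the sequence of their middle, black boxes are exons, ticks are CA or TG runs of at least 20 bp and triangles are full AHR words. Of 26 triangles, 2 lie under a peak, at Cdx2 and Gata6, against 20 of 36 ticks.

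The score of a peak is the fold enrichment deposited by the authors, the ChIP pileup of fragments plus 1 divided by the expected background plus 1. Over the whole wild type list the median was 5.32 (quartiles 4.53 and 5.98), and the top 10% began at 7.14. The 24 peaks had a median of 5.29, with a 95% interval for the median of 4.64 to 6.65, and ranged from 3.61 to 10.3. Of these, 11 were above the list median, 12 below and 1 at it. They did not stand apart from the list by score. Peaks in the top 10% numbered 4 and belonged to Cdx1 and Hnf4a, so 2 of 6 genes had one, against 23.0% of protein-coding genes. By their best peak the genes ran from Cdx1 (10.3) and Hnf4a (8.89) through Klf5 (6.65), Gata6 (6.31) and Klf4 (5.52) to Cdx2 (4.98). One more fragment of pileup adds 0.332 to the score of a peak over the list's general background of 2.01 fragments. Klf5 and Gata6 differed by 1 such fragment, at pileups of 19 and 18. Among protein-coding genes with a peak, 95.9% had a lower best score than Cdx1 and 89.0% a lower one than Hnf4a, but only 15.6% a lower one than Cdx2.

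**Figure D3:**
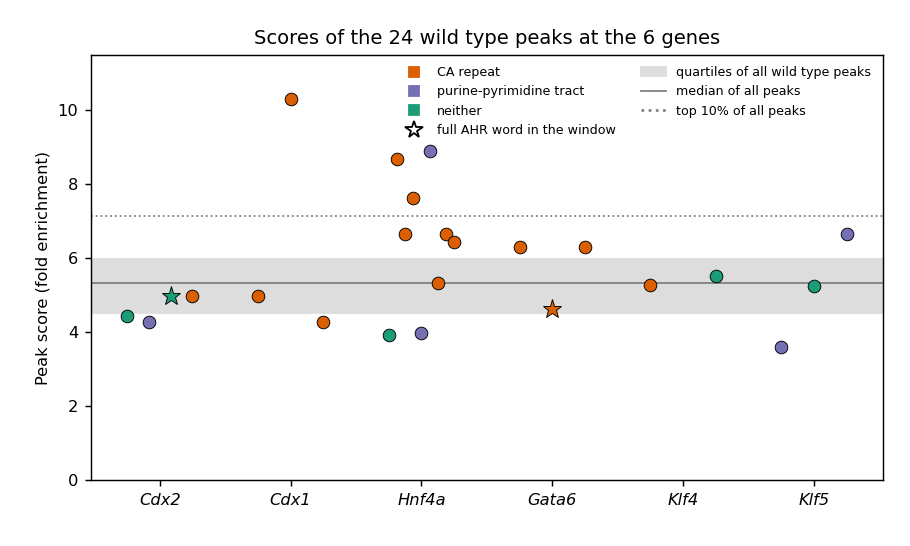
Score of each of the 24 wild type peaks (y axis, fold enrichment) by gene, coloured by sequence class, with a star where the 200 bp around the midpoint hold the full AHR word. The band and line are the quartiles (4.53 and 5.98) and median (5.32) of all wild type peaks and the dotted line is the start of the top 10% (7.14). The 4 peaks above the dotted line are 1 at Cdx1 and 3 at Hnf4a, and both stars lie below the median.

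Cdx2, the homeobox factor that holds the intestine to its identity, occupies chr5:147300805-147307270 on the minus strand, and none of its 4 peaks touched the gene body or a promoter. Peak 3 lay 7518 bp from the gene start and 1053 bp past the gene end, with a score of 4.98 and a pileup of 14 fragments. Of the 24 windows of 200 bp around the peak midpoints, that of Cdx2 peak 3 was the only 1 with under 25% of its bases in soft-masked repeats (20.5%), which was true of 0.454% of all wild type windows. It had a GC content of 61.0% and 10 CpG. The word TCGCGTG lay at chr5:147299718-147299724, 58 bp from the midpoint, in unmasked sequence. The 21 bases around that word occur at 1 place in the genome, and every stretch of the read length across the peak was also unique.

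The other 3 peaks of Cdx2 lay in repeats. Peak 4, upstream of the gene by 6302 bp, had the same score of 4.98 and pileup of 14 as peak 3 but held a perfect TG run of 48 bp and neither AHR word. Peak 2, 4554 bp past the gene end, scored 4.27 and was 90.0% masked, with a purine-pyrimidine tract of 162 bp in its window. Peak 1, 9246 bp past the gene end, scored 4.45, was 66.0% masked and held GCGTG within masked sequence, and its window also held the TEAD word GGAATG. All 4 scores lay below the list median, and the peak with the AHR word scored no higher than the TG run upstream. A second TNGCGTG of the Cdx2 window, 9871 bp upstream of the gene start in unmasked sequence, was 3384 bp from the nearest peak.

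Cdx1, the paralog of Cdx2 that is expressed in crypt cells, occupies chr18:61018862-61036199 on the minus strand and had the highest score of all 24 peaks. Peak 2, at chr18:61033926-61034351 in intron 1 and 1848 bp from the gene start, scored 10.3, above 99.1% of the wild type list. Its window was 100% masked and held 25 separate copies of CACACA or TGTGTG, with a longest perfect run of 48 bp, and no AHR word was found over the whole peak of 426 bp. Peaks 1 and 3 scored 4.98 and 4.28, and each also held a CA run, of 42 and 32 bp, and a GATA word. Both lay nearer to the start of another gene. Peak 1, 5742 bp past the end of Cdx1, was inside Slc6a7 and 1086 bp from its start, and peak 3, 8439 bp upstream of Cdx1, was 299 bp upstream of the start of Pdgfrb. The Cdx1 window has 3 places of TNGCGTG, all unmasked, and none was under a peak, although 1 of them was 45 bp from the edge of peak 3.

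Hnf4a, the nuclear receptor, occupies chr2:163506808-163572910 on the plus strand and had the most peaks, 6 of them in its body. The highest, peak 6, scored 8.89, was 656 bp wide and lay 204 bp after the start of the transcript Hnf4a-204. Its window held a purine-pyrimidine tract of 129 bp built of CTTC units, a CA run of 48 bp lay elsewhere in the peak, and no AHR word was present. Peak 2, in intron 1 of the longest transcript and 7419 bp from the gene start, scored 8.68 and was the only 1 of the 24 windows with an AP-1 word, which here lay beside a CA run of 38 bp with GCGTG and a GATA word. Peaks 3 and 4 of the same intron scored 6.65 and 7.64 and held CA runs of 22 and 44 bp, and that of peak 4 adjoined a GCGTG whose 21 bases occur at 10 places. The antisense gene Hnf4aos also covers peaks 1 to 4, and ChIP reads do not tell strands apart.

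The promoter peak of Hnf4a was a weaker one. Promoters were taken as 1 kb before to 100 bp after the annotated transcript starts of the gene itself, and peak 5 lay 679 bp before that of Hnf4a-203, a processed transcript. Peak 5 scored 3.99 with a pileup of 11, the lowest pileup among those that could be read, and was 100% masked, with a tract of AAAG units. Peak 1, 9050 bp upstream and inside R3hdml, scored 3.93 and began with a perfect 96 bp repeat of AGAGGC units. These 2 peaks had the lowest shares of unique stretches of the read length of all 24, 89.8% and 89.5%, and a stretch of peak 1 occurs at 11733 places. Peaks 7, 8 and 9 scored 5.32, 6.65 and 6.45 and held CA runs of 50, 56 and 42 bp. Peak 9, with 8 copies of GCGTG, lay 4410 bp past the gene end and nearer to the start of Ttpal. The 8 places of TNGCGTG in the Hnf4a window were all outside peaks, at 220 bp or more from the nearest peak edge.

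Gata6, the zinc finger factor, occupies chr18:11052064-11085635 on the plus strand, and its 3 peaks all held CA repeats. Peak 1, at chr18:11052109-11052343, was the only 1 of the 24 to touch an exon of its gene, with a score of 6.30. It began 45 bp after the gene start in exon 1 of Gata6-203, which ended at 93 bp. The window of peak 1 was 49.5% masked and held a TG run of 32 bp and 1 GCGTG, both past that exon. The transcript 1010001N08Rik overlaps the peak too. Peak 2, in intron 6 of Gata6-201, scored 4.64 and held the other TNGCGTG under a peak, at chr18:11077589-11077595, together with 14 copies of GCGTG. Unlike the word at Cdx2, this word lay in masked sequence (100% of the window), and its 21 bases occur at 2 places in the genome, while those around other GCGTG copies of the peak occur at up to 3682. Peak 3, 9619 bp past the gene end, scored 6.31 with a CA run of 24 bp. The window has 6 places of TNGCGTG, and 1 of the 5 outside peaks lay in a promoter, 319 bp before the start of Gata6-205, a transcript with a retained intron.

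Klf4, the factor of differentiated cells, occupies chr4:55527143-55532466 on the minus strand and had no peak in its body. Peak 1, 9103 bp past the gene end, scored 5.27 and joined a TC repeat of 65 bp to a CA run of 54 bp, at the end of which lay 1 GCGTG whose 21 bases occur at 818 places. Peak 2, 4546 bp upstream, scored 5.52, was 581 bp wide and 100% masked in its window. The window was a TC-rich sequence broken by single G or A bases, and a perfect TC repeat of 35 bp lay elsewhere in the peak. The scores differed by less than the 0.332 that 1 fragment adds over general background. An unmasked TNGCGTG 1489 bp into the gene was 6035 bp from the nearest peak.

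Klf5, the factor of dividing crypt cells, occupies chr14:99298691-99315036 on the plus strand and was the only 1 of the 6 genes with no CA repeat peak. As at Cdx1, none of its peak windows held an AHR word. Peak 3, 8946 bp past the gene end, scored 6.65 with a purine-pyrimidine tract of 71 bp in its window, and 1 GCGTG lay in unmasked sequence 105 bp from the midpoint, just outside that window. Peak 2, 1788 bp past the end, scored 5.26 in fully masked sequence with a run of 22 T. Peak 1, 8315 bp upstream, scored 3.61, the lowest of the 24, over a tract of 77 bp. A pair of TNGCGTG words in unmasked sequence, 752 and 773 bp after the gene start, had no peak within 9067 bp. The Klf5 window held 1 CA run of 20 bp or more, against 14 in that of Hnf4a and 10 in that of Gata6.

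To ask what the peaks share in sequence, words were searched on both strands within the 200 bp windows and the shares set beside those of 123366 wild type windows. TNGCGTG, which contains GCGTG, was found in 2 of 24 windows (8.33%, 95% Wilson interval 2.32 to 25.8) against 2.84%, and 2 of 6 genes had such a peak against 6.74% of protein-coding genes. GCGTG itself was found in 8 of 24 (33.3%, interval 18.0 to 53.3) against 17.7%. The interval for GCGTG lies just above the background share, while that for TNGCGTG includes it. With 50 kb on either side of the genes the share with TNGCGTG was 3.08% of 65 peaks. Since Hnf4a peak 9 and Gata6 peak 2 hold 8 and 14 copies within repeats, windows with GCGTG are not separate occurrences of a site.

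Words of the factors' own families, and of AP-1 and TEAD, were searched in the same windows. The CDX word TTTATNG was in 0 of 24 windows (Wilson interval 0 to 13.8%), against 6.79% of all windows. The HNF4 word CAAAGTCC was likewise in 0 of 24, against 0.258%. The GATA words AGATAA or TGATAA were in 3 of 24 (Cdx1 peaks 1 and 3 and Hnf4a peak 2) against 9.79%, and the KLF word GGGNGTG, whose form GGGCGTG overlaps GCGTG, was in 2 of 24 (Cdx2 peak 4 and Hnf4a peak 3) against 15.0%. The AP-1 words TGACTCA or TGAGTCA were in 1 of 24 against 1.28%, and the TEAD word in 1 of 24 against 7.24%. The Wilson interval of each of these 6 shares included the share in the list.

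Repeats made up most of the sequence. Of 24 windows, 17 were at least 50% masked (70.8%, interval 50.8 to 85.1) against 86.0% of all wild type windows. A CA repeat, defined by CACACA or TGTGTG occurring in 3 or more separate places of a window, was held by 14 (58.3%, interval 38.8 to 75.5) against 57.3%, with longest perfect runs of 22 to 56 bp. A purine-pyrimidine tract of at least 30 bp without a CA repeat was held by 5 (20.8%) against 13.8%, and neither by another 5 against 28.9%. The shares at the 6 genes thus lay close to those of the list for CA repeats and below it for masked sequence. CA repeat peaks had a median score of 6.31 (range 4.28 to 10.3), and the other 10 a median of 4.72 (range 3.61 to 8.89), as over the whole list, where the medians were 5.65 and 4.65. The ranges overlapped widely.

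Looking from the sequence to the peaks, 20 of 36 CA or TG runs of at least 20 bp in the 6 windows were under a wild type peak (55.6%), against 30.8% of such runs on the assembled chromosomes. Of 69 purine-pyrimidine tracts, 12 were under a peak (17.4%) against 10.7%, and of 226 places of GCGTG, 29 were (12.8%) against 4.70%. Of 26 places of TNGCGTG, 2 were under a peak (7.69%) against 2.71%, and of the 22 in unmasked sequence only that at Cdx2 was, against 0.498% of unmasked places. These places lie in clusters, 14 of the 29 GCGTG places in Gata6 peak 2 and 8 in Hnf4a peak 9, so the counts are not of independent sites. Places under a peak were more frequent in the windows than on the chromosomes for all 4 features, AHR words and plain repeats alike, as was the density of peaks itself. The 24 places of TNGCGTG outside peaks were a median of 4613 bp from the nearest peak, with 5 of them within 1 kb.

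**Figure D4:**
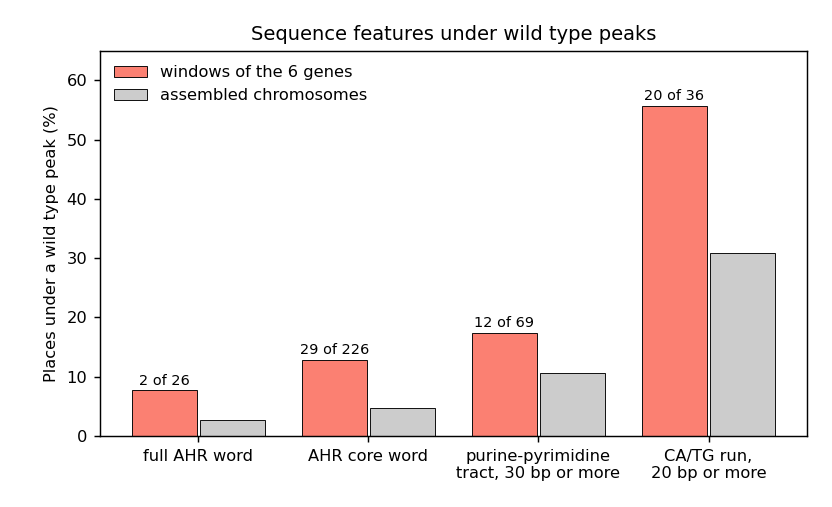
Share of places of each sequence feature that lie under a wild type peak (y axis, percent, from 0) in the windows of the 6 genes and on all assembled chromosomes, with the counts above the bars of the 6 genes. Bars have no error because places cluster. The share for CA or TG runs, 55.6% against 30.8%, is the highest of the 4 features in both.

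By place, 2 of 6 genes had a peak at a promoter, Hnf4a and Gata6, against 10.7% of protein-coding genes, and 4 of the 24 peaks lay within 2 kb of a transcript start of the member gene. Starts of other genes were not counted here, such as those of Slc6a7 and Pdgfrb beside Cdx1 peaks 1 and 3. For 20 of the 24 peaks the nearest protein-coding start was that of the member gene, and for 4 it was that of Slc6a7, Pdgfrb, R3hdml or Ttpal. Peaks were a median of 210 bp wide (180 to 656 bp) against 227 bp over the list, and windows had a median GC content of 50.2% against 46.0%. Every stretch of the read length was unique in the genome in 20 of the 24 peaks, by exact matches only.

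The paper ran AHR ChIP-seq on wild type and AHR KO organoids to identify AHR-specific targets that depend on ligand. None of the 6 genes had an AHR KO peak, as against 4.47% of protein-coding genes that had one. The nearest AHR KO peaks were 98.0 kb from Cdx2, 110 kb from Cdx1, 150 kb from Klf5, 701 kb from Gata6, 896 kb from Klf4 and 2042 kb from Hnf4a. Of the 24 wild type peaks 0 overlapped one, which allows a share of up to 12.5%, and over the whole wild type list 1.51% did. An absence in the AHR KO list was thus the common case for genes and peaks alike. The general background was 0.287 fragments in the AHR KO against 2.01 in wild type. At the AHR KO background, 17 of the 24 peaks would keep a pileup of 5 or more, the lowest that could be read in the AHR KO list, and the other 7 would fall below it at an unchanged fold enrichment. Over the whole wild type list 67.9% of peaks would keep that pileup. A pileup of 8, the median that could be read in the AHR KO list, would be reached by 4 of the 24 and by 10.4% of the list. That background was read from the 17.3% of AHR KO scores that lie on a common step, against 51.6% in wild type. Of the 24 scores only 10 lay on the wild type step. The counts of kept pileups take the general background for the others too, which was not checked. Genotype and depth cannot be told apart in these lists.

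The 13 other factors of intestinal identity and paralogs reported (Hnf4g, Gata4, Gata5, Foxa1, Foxa2, Foxa3, Cdx4, Elf3, Ehf, Isx, Prdm1, Klf3 and Klf6) were counted in the same way. Wild type peaks were found at 11 of them, 30 in all, 18 with a CA repeat, and AHR KO peaks at 0. A peak in the top 10% of scores was found at 2, a promoter peak at 2 and a peak with TNGCGTG at 1, while Cdx4 and Elf3 had no peak. The highest best scores were 9.64 at Isx, an intestinal homeobox factor, 8.31 at Prdm1, a repressor that marks the fetal intestine, and 6.20 at Klf3, each at a CA repeat. The best peak of Cdx1, at 10.3, scored above all 30 of these peaks. No test compared these genes with the 6 factors.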

How the data were processed

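AHR ChIP-seq was made from 4 wild type and 1 AHR KO sample, each with input. The authors aligned single-end reads to mm10 with BWA 0.7.15, marked duplicates with Picard 2.1.1, called peaks with MACS2 2.1.1 in its standard settings against input, and annotated them with HOMER 4.8. The methods name Bedtools and custom scripts for finding common and unique peaks across experiments. Whether this made the wild type list, and how multiply mapping reads were handled, are not given in the sources used here. The deposited score is a fold enrichment, a ratio that the authors' peak caller gave, as its values show. Library depth was not analysed here. A general background was read from the step on which 51.6% of wild type and 17.3% of AHR KO scores lie (tolerance 0.001). Scores depend on depth and were not compared between lists.

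Peaks overlapping a gene window by 1 bp were taken with Python 3.11.15 and pandas 2.3.3, and printed starts have 1 added. Distances run to the nearest peak edge. Words were counted for chromosomes 1 to 19, X and Y. Soft-masked bases mark repeats. The named genes are the 6 members with every peak, and 13 other factors by counts, with values for the 3 of highest best score and those without a peak. Values of 3 relatives of the members (Hnf4g, Gata4 and Klf6) were added after they were seen. The rest of the other factors chosen are not reported here, and counts leave them out. Wilson and Poisson intervals are at 95% and cover counting error only. The 0 overlaps with AHR KO peaks were limited by 3 counts, and words found in 0 windows by the Wilson interval. Members and lists were chosen with earlier results of these data known. The purine-pyrimidine tract, perfect runs, counts of places, uniqueness and genes of matched window length were chosen after the data were seen. Scripts were tested on simulated peaks.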

Additional observations from a re-analysis of the deposited data

How the results depend on the processing

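Of 31 alternatives, 21 stayed within the counting error or 1.5 times the value reported and 10 did not, each by its own construction (another window, minimum or definition). The 24 wild type peaks at the 6 genes became 12 with 2 kb on either side, 65 with 50 kb, 12 with scores at or above the list median and 4 with the top 10% of scores, where 2 genes kept a peak and the density was 0.151 per 10 kb. AHR KO peaks remained 0 at 2 kb and at 50 kb, where 10.5% of protein-coding genes had one. The share of peaks with TNGCGTG, 8.33%, became 33.3% with the core GCGTG and fell to 3.08% at 50 kb, within its interval. The share of masked windows, 70.8%, became 45.8% at a minimum of 75% masked and 95.8% at 25%. Promoter peaks, counted at the genes' own transcript starts, went from 2 to 4 with 2 kb on either side. At 50 kb the density was 0.872, against a median of 0.468 among protein-coding genes. Without Hnf4a, chosen after seeing the data, the median score was 4.98, and 13.3% of peaks held TNGCGTG, 53.3% a CA repeat and 66.7% were masked. Leaving out each culture was not run, since the wild type list has no value per culture. No paired analysis was possible because all wild type replicates share 1 list and 1 score per peak.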

Other observations

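Hnf4g, the paralog of Hnf4a, had 5 wild type peaks at 0.294 per 10 kb, with a best score of 5.32, and Gata4, the paralog of Gata6, had 4 at 0.431 with a best score of 5.02. Klf6 had 3 peaks at 1.04 per 10 kb with a best score of 5.05.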
